A study of Homo sapiens with 2 samples.

Results

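Sites of TCF4 were described at 6 genes that encode transcription factors of the B lineage, TCF4 itself, SPIB, IRF4, FOXP1, BCL11A and RUNX1. Their members were all rows of the deposited peak table that carry one of these gene names, 29 of 662 peaks and 6 of 275 genes. The table came from ChIP-seq, the sequencing of DNA recovered with an antibody against a bound protein, in the established cell line SU-DHL-2. This line models the activated B-cell-like form of large B-cell lymphoma and has no gain in TCF4 copies. Both libraries came from cells with a tetracycline-inducible TCF4, given doxycycline at 60 ng/ml for 24 hours: 1 is the TCF4 ChIP (5 µg of antibody, after fixing in 1% formaldehyde, with spike-in chromatin) and 1 is input DNA from a whole-cell extract. Every site was therefore measured under TCF4 added from a transgene, and a library without induction was not analysed here. Expression data were not used here, so the cell type was not set against its marker genes.

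TCF4 (E2-2) belongs to the E proteins, a class of basic helix-loop-helix factors that bind as dimers to the short E-box sequence CANNTG and are held in check by the ID proteins. E proteins drive B-cell development, and TCF4 also sets the identity of plasmacytoid dendritic cells. SPIB is an ETS-family factor of B cells and plasmacytoid dendritic cells, and IRF4, which binds DNA together with ETS factors, directs plasma-cell differentiation and is a hallmark of activated B-cell-like lymphoma. FOXP1 is a forkhead factor with roles in early B cells and in this lymphoma type. BCL11A is a zinc-finger repressor needed for lymphoid development, and RUNX1 is the DNA-binding subunit of a core-binding factor of early blood formation. The table lists only peaks of genes in a TCF4 signature, and all 6 genes were marked Up in it, as were 229 of the 275 genes (83.3%). The file headers do not state what Up is measured against.

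The sequences under the peaks were not used here, because no genome of the peaks' build (hg19) was at hand. The E-box letters were instead sought in the RefSeq promoter windows of the 6 genes (build GRCh38.p14, 250 bases before to 50 after each start), of which the table holds 24. CANNTG reads the same on both strands, and adjacent matches may share bases. It was present in 13 of the 24 windows (54.2%) and in 68.7% of the 35116 windows of all genes. By gene, 7 of 10 TCF4 windows, 3 of 6 of FOXP1, 2 of 5 of BCL11A and the 1 of SPIB held it, and the single windows of IRF4 and RUNX1 did not. CAGCTG was in 0 of the 24 windows and in 17.9% of all windows. CAGGTG or its complement CACCTG was in 2 of the 24, both of FOXP1, and in 20.6% of all. The windows that follow are shown as what the letters look like at 3 of these genes: the single windows of IRF4, the gene with the listed peak closest to its start, and of SPIB, and the FOXP1 window with the most matches. Capitals mark CANNTG. They lie at chr6:391502-391801 and chr19:50418688-50418987, both on the plus strand, and at chr3:71543508-71543807 on the minus strand.
IRF4: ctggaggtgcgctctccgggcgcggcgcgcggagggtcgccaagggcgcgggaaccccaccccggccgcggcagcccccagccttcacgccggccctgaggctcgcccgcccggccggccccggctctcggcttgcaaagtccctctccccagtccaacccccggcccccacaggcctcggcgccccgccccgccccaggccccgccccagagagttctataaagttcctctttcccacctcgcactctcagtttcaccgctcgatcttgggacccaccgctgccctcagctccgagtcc
SPIB: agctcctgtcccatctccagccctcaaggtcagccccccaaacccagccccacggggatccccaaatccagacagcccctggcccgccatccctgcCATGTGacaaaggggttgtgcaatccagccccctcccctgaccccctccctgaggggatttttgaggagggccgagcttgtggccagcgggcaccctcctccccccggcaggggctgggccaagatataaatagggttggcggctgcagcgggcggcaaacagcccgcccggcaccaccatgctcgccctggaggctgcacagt
FOXP1: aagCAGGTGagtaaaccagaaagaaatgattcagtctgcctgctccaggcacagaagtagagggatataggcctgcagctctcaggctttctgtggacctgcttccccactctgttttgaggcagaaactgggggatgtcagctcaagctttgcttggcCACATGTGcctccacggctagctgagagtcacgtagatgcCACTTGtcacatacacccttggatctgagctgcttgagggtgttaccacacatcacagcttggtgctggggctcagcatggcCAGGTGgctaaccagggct

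The IRF4 window holds no match, the SPIB window 1, CATGTG at base 97, and the FOXP1 window 5, of which CAGGTG occurs at bases 4 and 282. These windows are not placed against the peaks, whose coordinates are of another build, and a match is only a description of letters.

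Across the 6 genes, listed TCF4 sites lay inside and around the genes, and none was annotated at a promoter. Of the 29 peaks, 19 (65.5%) were annotated as within the assigned transcript, 2 as upstream and 8 as downstream, against 52.0% within among all listed peaks. The authors gave the promoter mark to 36 of the 662 peaks (5.44%), and to 0 of the 29. Distances to the start site of the assigned transcript ran from 2.42 kb to 549 kb with a median of 83.4 kb, and the median of all listed peaks was 39.7 kb. Over 100 kb from the start lay 13 of the 29 peaks (44.8%), of which 10 were FOXP1 peaks, against 20.4% of all peaks. That share depends on the transcript assigned. The 7 intragenic FOXP1 peaks lay only 7.69 kb to 68.3 kb from the nearest start site that the authors' distances give for the gene. Nearest starts were not sought for the other listed peaks, so this distance has no value over all peaks beside it. Peaks of 1 gene share its length and structure and are not independent, so these shares describe the table and were not tested.

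**Figure D1:**
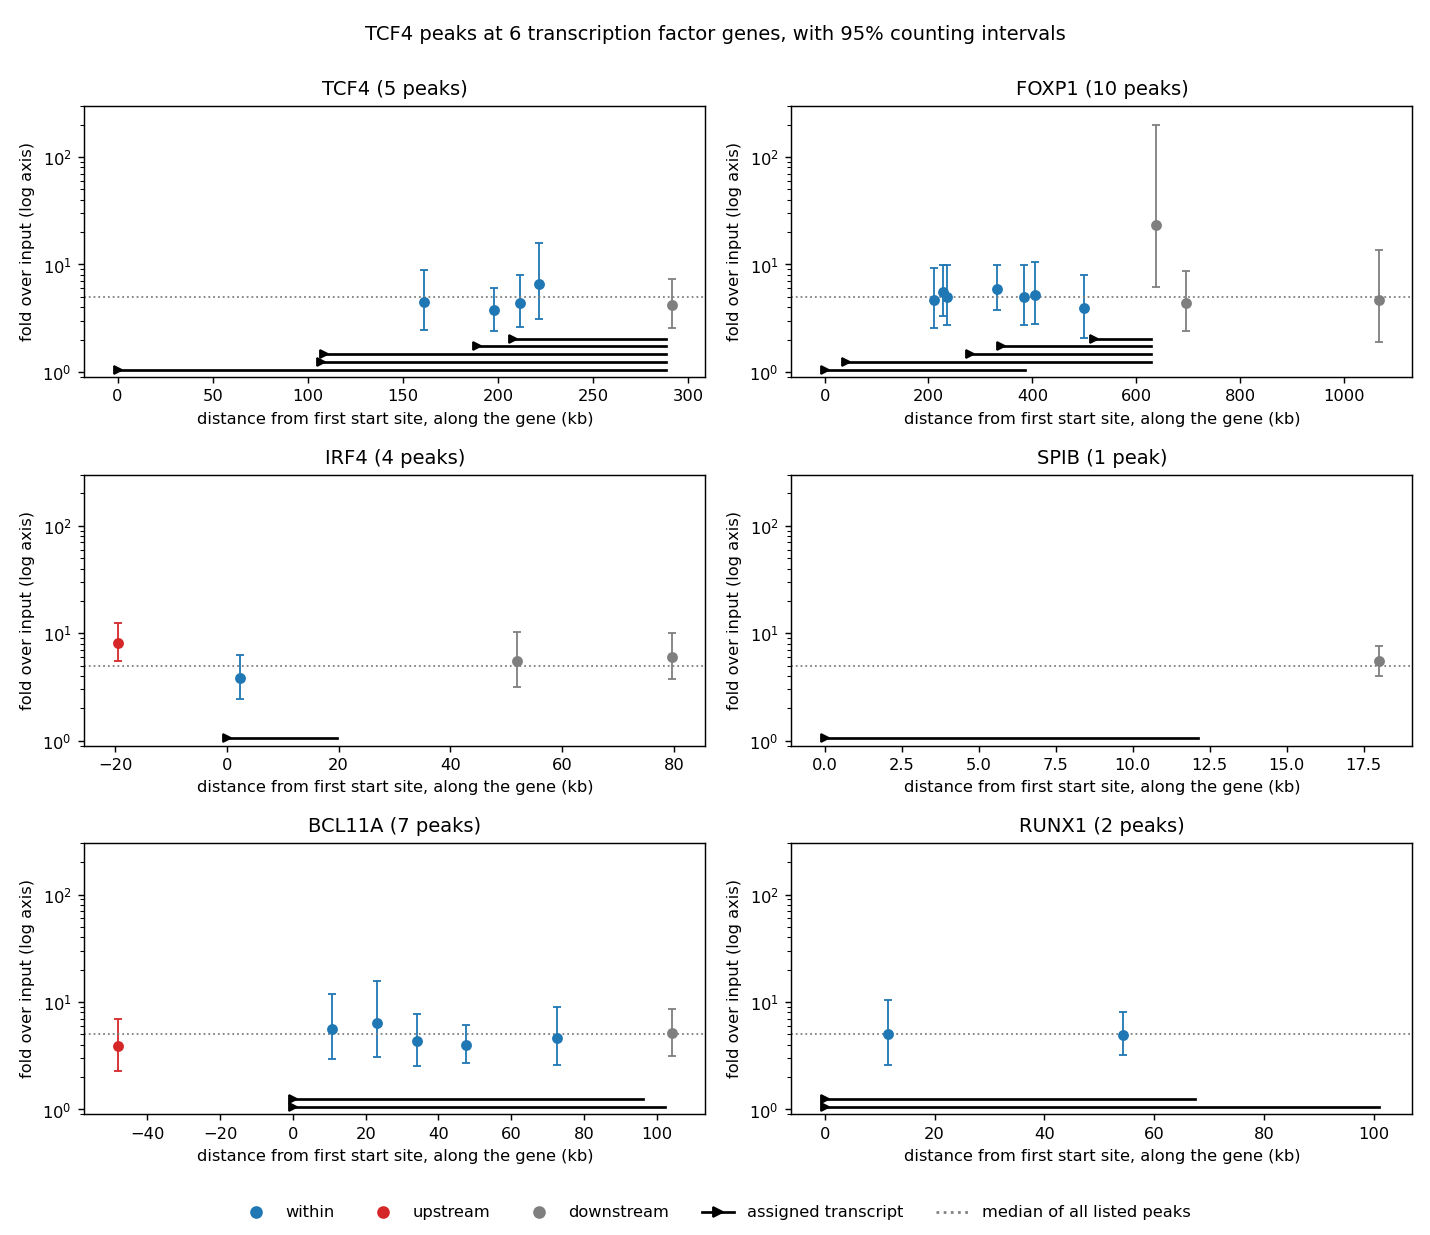
Fold enrichment of ChIP over input (log axis) at each peak against its distance in kb from the first start site recovered for the gene, with the direction of the gene to the right. Points are peaks coloured by the authors' position, bars are 95% counting intervals, black lines are the assigned transcripts, and 27 of the 29 intervals include the dotted median of all listed peaks.

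In fold and log2 ratio, the medians of the 29 peaks were close to those of the table, while their ChIP reads were fewer. The 29 peaks held 31 to 273 ChIP reads (median 73) and 2 to 45 input reads (median 15), where all listed peaks had medians of 91 and 16. Of the 29, 11 had more ChIP reads than the table's median. Fold enrichment is given throughout as ChIP reads over input reads, scaled by the 2 library constants, with a 95% interval that covers counting error only, since there was 1 library of each kind and no replicate. The median fold was 5.00 at the 29 peaks and 5.01 over all listed peaks, and the deposited scaled log2 ratio had medians of 2.23 and 2.24. The summed reads, 2783 in ChIP and 491 in input, gave 5.12-fold (4.65 to 5.64), against 5.60-fold (5.49 to 5.71) over all listed peaks. The intervals of 27 of the 29 peaks included the table's median fold, and those of 2, 1 of IRF4 and 1 of FOXP1, lay above it, as did those of 8.16% of all peaks. The table holds no peak with an unscaled log2 ratio under 2.01, so weaker sites at these genes are missing from every count and median.

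TCF4, the gene of the precipitated factor, carried 5 peaks on chromosome 18, of which 4 lay within the gene, in its distal part, and 1 just downstream of it. They lay 161 kb to 292 kb from the first of the 5 start sites that could be recovered from the authors' distances, and the longest assigned transcript spans 288 kb. The peak nearest to that first start, at 53016874 to 53017245, had 65 ChIP and 13 input reads, 4.51-fold (2.46 to 8.93). The peak at 52979979 to 52980363 had the most reads of the 5, with 104 in ChIP and 25 in input, 3.75-fold (2.41 to 6.07). Its deposited scaled log2 ratio of 1.87 was the lowest of all 662 peaks. Its local −log10 p-value of 6.70, the authors' comparison with the surroundings of the peak, was at the same time the highest of the 29 and ranked 28 in the table. Its input signal, 0.772 in the deposited normalized unit, ranked 31 and stood above the table median of 0.414.

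The other 3 TCF4 sites were similar in strength. The peak at 52966259 to 52966701 had 83 ChIP and 17 input reads, 4.41-fold (2.59 to 7.92). At 52956154 to 52956551 there were 58 ChIP and 8 input reads, 6.54-fold (3.11 to 15.9), the highest fold of the gene and the lowest input signal (0.239). The site at 52886162 to 52886778, 616 bp wide and 3.09 kb past the end of the transcript, had 89 and 19 reads, 4.23-fold (2.56 to 7.35). All 5 intervals overlapped one another, and the summed reads of the gene, 399 and 82, gave 4.39-fold (3.46 to 5.64), the lowest of the 6 genes. The input signal of the 5 peaks ran from 0.239 to 0.772 with a median of 0.415, and the median of the 103 listed peaks of chromosome 18 was 0.377. Gaps between neighbouring TCF4 peaks were 9.71 kb to 69.4 kb.

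TCF4 has several start sites inside the gene, so the distance of a peak depends on the transcript chosen. Against the transcript to which each was assigned, the 4 intragenic peaks lay 32.7 kb to 161 kb from the start. Against the nearest start site recovered for the gene, the peak at 52966259 lay 3.37 kb downstream and the one at 52979979 8.92 kb downstream. The other 2 intragenic peaks were 13.5 kb and 28 kb from a recovered start. The recovered starts are only those of transcripts named in the table, so other start sites of the gene could lie closer.

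**Figure D2:**
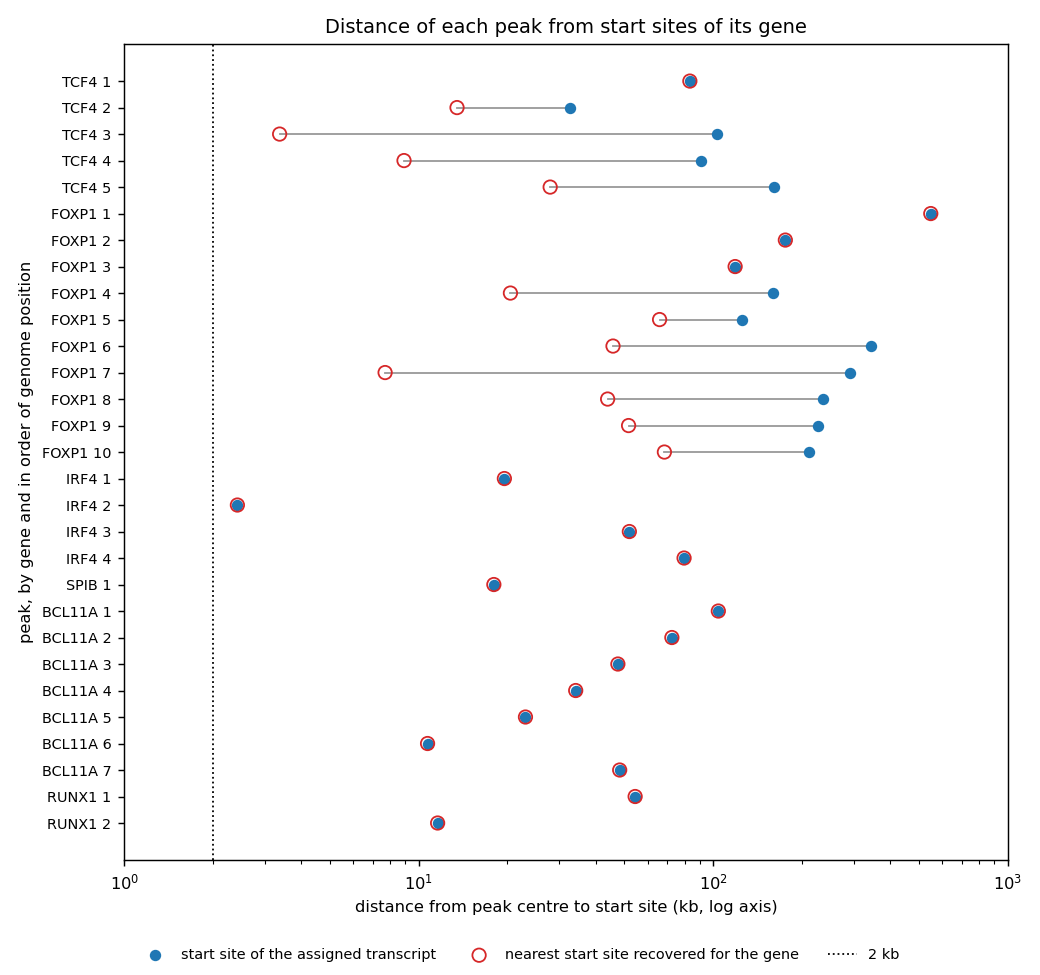
Distance in kb (log axis) of each of the 29 peaks from the start site of its assigned transcript (filled) and from the nearest start site recovered for its gene (open); peaks are numbered within a gene in order of genome position. For 11 peaks, 4 of TCF4 and 7 of FOXP1, a start site other than the given one was nearer, and no peak lay within 2 kb of either.

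SPIB, the ETS-family gene, had a single and broad peak on chromosome 19. It spanned 961 bp from 50939719 to 50940680, 18 kb from the start and 5.89 kb past the end of the 12.1 kb transcript. With 273 ChIP and 45 input reads, the most of the 29 peaks in both libraries, it ranked 22 of 662 by ChIP reads and 6 by input reads. The enrichment was 5.48-fold (3.98 to 7.68), near the table's median in spite of the read number, and its width ranked 22. Its local −log10 p-value of 4.02 lay below the table median of 4.20. In RefSeq the next protein-coding gene past SPIB is MYBPC2, which has no listed peak. Only the order of the genes was read, so whether the peak lies inside MYBPC2 was not determined. A gene outside the signature could have no listed peak, so the assignment to SPIB is the authors'.

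IRF4, the plasma-cell and lymphoma factor, carried 4 peaks on chromosome 6 spread over 99.9 kb around a 19.7 kb transcript. The upstream peak at 371763 to 372612, 19.6 kb before the start, was the most enriched of them, with 262 ChIP and 29 input reads. It reached 8.15-fold (5.55 to 12.4), was 849 bp wide with its apex at 372155, and had the highest ChIP signal of the 29 peaks (3.30). Its local −log10 p-value of 3.17 was nonetheless the lowest of the gene and ranked 487. The peak within the gene at 393967 to 394356, 2.42 kb past the start, was the closest to a start site of all 29. It had 102 ChIP and 24 input reads and was the least enriched of the gene, 3.84-fold (2.44 to 6.26). Its ChIP signal of 2.81 was above the table median of 2.10, and its input signal of 0.731 ranked 41 of 662. The intervals of the upstream and the intragenic peak overlapped between 5.55-fold and 6.26-fold. Here and at the other genes, such an overlap is a description and not a test of a difference.

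Downstream of IRF4 lay the peaks at 443474 to 443905 and at 471172 to 471696. The first had 92 ChIP and 15 input reads, 5.54-fold (3.19 to 10.3), and stood 32.2 kb past the end of the transcript. The second had 133 and 20 reads, 6.0-fold (3.73 to 10.1), and stood 60.0 kb past it. Both overlapped in their intervals with the upstream and the intragenic site. The next protein-coding gene on this side is EXOC2, and on the other side DUSP22, neither of which has a listed peak. Distances to these 2 genes were not measured. A gene outside the signature could have no listed peak, so its absence says nothing about the assignment to IRF4. Summed over the gene, 589 ChIP and 88 input reads gave 6.04-fold (4.82 to 7.65), the highest of the 6 genes, and the interval overlapped those of the other 5.

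FOXP1, the forkhead gene, had the most peaks of the 6 genes, 10 over 857 kb of chromosome 3, and no other gene of the table had more. Of these, 7 lay within the assigned transcripts and 3 downstream. The intragenic peaks formed a stretch of 3 between 71397537 and 71422414, with gaps of 7.36 kb and 16.3 kb, and 4 more widely spaced peaks from 71134413 to 71302278. The group of 3 had 72, 104 and 68 ChIP reads and 13, 17 and 13 input reads, 4.72-fold to 5.52-fold. The strongest by reads was the peak at 71301740 to 71302278, with 139 ChIP and 21 input reads, 5.97-fold (3.76 to 9.96), and a local −log10 p-value of 6.47 that ranked 36 of 662. It lay 291 kb from the start of its assigned transcript but 7.69 kb upstream of another recovered start site.

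The remaining intragenic FOXP1 peaks were weaker in reads. At 71248407 there were 72 ChIP and 13 input reads, 5.00-fold (2.75 to 9.84), and at 71228315 there were 69 and 12, 5.19-fold (2.79 to 10.5). The peak at 71134413 had 52 and 12 reads, 3.91-fold (2.06 to 8.05), and lay 20.5 kb upstream of the innermost recovered start. All 7 intragenic intervals overlapped one another.

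Among the 3 downstream FOXP1 peaks 1 stood apart by its input. The peak at 70995102 to 70995452, 8.59 kb past the end of the transcript, had 52 ChIP reads and only 2 input reads, 23.5-fold with an interval of 6.18 to 199. Its scaled log2 ratio of 4.00 ranked 6 of 662, whereas its ChIP reads ranked 569, so the high ratio rests on the input count. The site at 70937971 had 63 and 13 reads, 4.37-fold (2.38 to 8.66), and lay 65.7 kb past the end. The farthest, at 70565424, was 221 bp wide, had 31 and 6 reads, 4.66-fold (1.92 to 13.7), and lay 438 kb past the end, after a gap of 372 kb without a FOXP1 peak. Both of these, and also the intragenic peak at 71397537, had the local −log10 p-value of 2.16, close to the table's lowest of 2.03. The assignment of a peak as distant as the one at 70565424 to FOXP1 is the authors'.

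**Figure D3:**
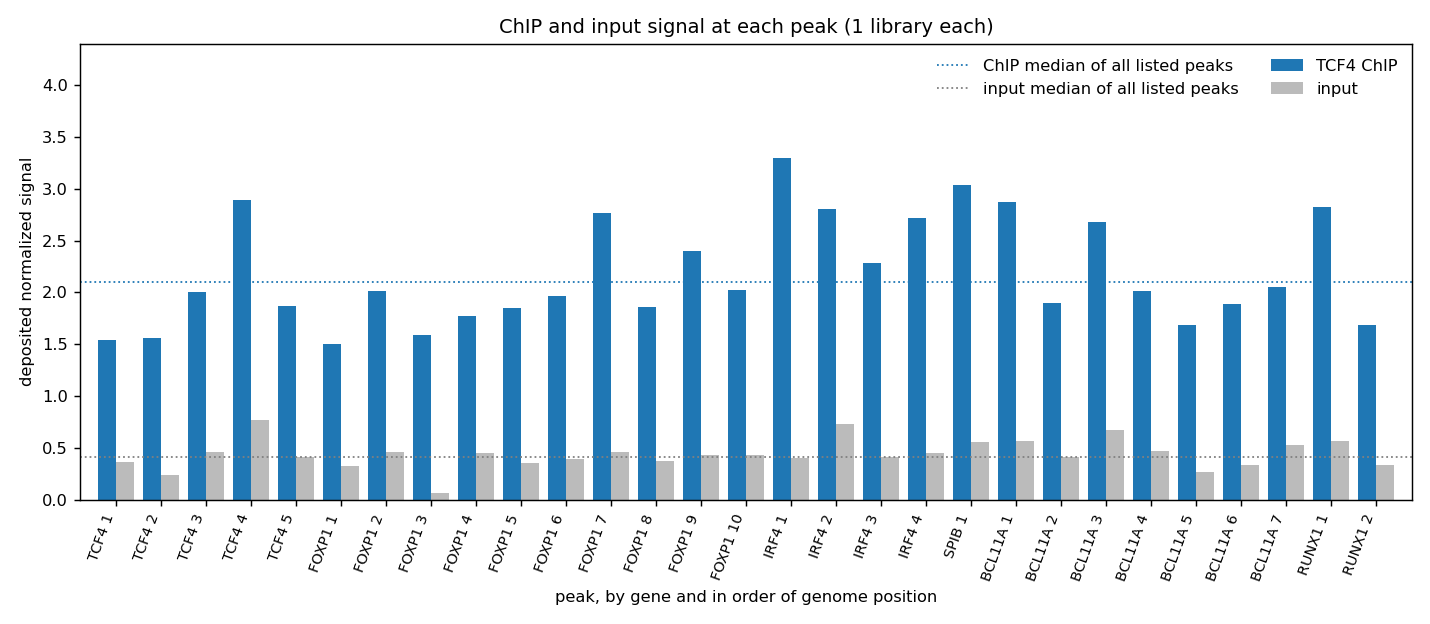
Deposited normalized signal of the TCF4 ChIP and the input library at each of the 29 peaks, numbered within a gene in order of genome position; dotted lines are the medians of all listed peaks. FOXP1 peak 3 has the lowest input signal (0.0677), and TCF4 peak 4 (0.772) and IRF4 peak 2 (0.731) have the highest.

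BCL11A, the zinc-finger repressor gene, carried 7 peaks on chromosome 2, 5 of them within the gene, 1 upstream and 1 downstream. The intragenic peaks lay 10.7 kb, 23.1 kb, 34.1 kb, 47.5 kb and 72.4 kb from the single recovered start site, with gaps of 10.7 kb to 24.5 kb between them. Read numbers were 57 to 142 in ChIP and 8 to 32 in input over all 7. The peak at 60732857 to 60733424 had the most, 142 and 32, yet only 4.01-fold enrichment (2.71 to 6.08), and its local −log10 p-value of 2.03 equalled the lowest value in the table. The peak at 60757398 to 60757759 had the fewest, 57 and 8, and the highest fold of the gene, 6.43 (3.05 to 15.6). The other intragenic peaks, at 60746270, 60769716 and 60707993, had 4.30-fold (2.53 to 7.74), 5.66-fold (2.98 to 11.9) and 4.64-fold (2.60 to 8.91).

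Outside BCL11A, the downstream peak at 60676247 to 60676667 lay 1.84 kb past the end of the transcript and had 113 ChIP and 20 input reads, 5.10-fold (3.15 to 8.66). The upstream peak at 60828611 to 60828991, 48.2 kb before the start, had 73 and 17 reads, 3.88-fold (2.26 to 7.01). The 7 intervals all overlapped. Summed, 607 and 119 reads gave 4.60-fold (3.78 to 5.65), and the median local −log10 p-value of 2.86 was the lowest of the 6 genes.

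RUNX1, the core-binding factor gene, had 2 peaks on chromosome 21, both within the gene. The one at 36206382 to 36206882 had 132 ChIP and 24 input reads, 4.96-fold (3.20 to 8.02), and lay 54.4 kb from the start. The one at 36249194 to 36249580 had 61 and 11 reads, 5.01-fold (2.61 to 10.5), and lay 11.6 kb from it. Their folds were nearly equal although the read numbers differed.

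**Figure D4:**
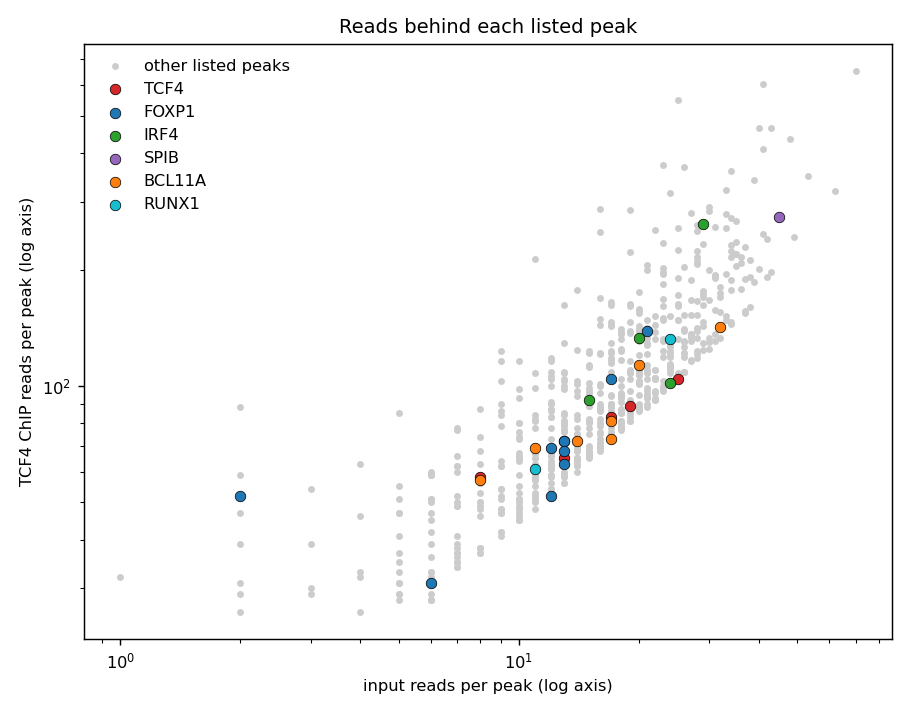
ChIP reads against input reads (log axes) for the 29 peaks of the 6 genes (coloured) and the other listed peaks with at least 1 input read (grey; 1 peak without input reads is not drawn). The SPIB peak (273 and 45 reads) and the upstream IRF4 peak (262 and 29) lie highest among the coloured points, and the FOXP1 peak with 2 input reads lies far to the left.

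To ask whether sites of 1 gene differed in enrichment, the reads of each peak were set against the summed reads of the other peaks of the same gene by a two-sided Fisher's exact test. The test ran over all 556 listed peaks of the 169 genes with 2 or more peaks, with Benjamini-Hochberg adjustment over all of them. It compares the reads of 2 libraries between positions and not conditions. In the 74 genes with 2 peaks, RUNX1 among them, both peaks give the same comparison seen from either side. The numbers of peaks tested and called are therefore not numbers of separate tests. Of the 28 peaks tested at TCF4, FOXP1, IRF4, BCL11A and RUNX1, 0 were called higher and 0 lower at an adjusted p of 0.05, while among all the peaks tested 0.540% were called higher and 0.540% lower. At an unadjusted p under 0.05 there were 3 of the 28 (10.7%), against 7.19% of all peaks tested. These were the FOXP1 peak with 2 input reads (4.66 times the ratio of the gene's other peaks, exact p = 0.0156, adjusted p = 0.365), the intragenic IRF4 peak (0.559 times, exact p = 0.0386, adjusted p = 0.596) and the upstream IRF4 peak (1.63 times, exact p = 0.0494, adjusted p = 0.687). Each of the 2 IRF4 peaks is among the peaks that the other was set against, so these are not separate results. Differences between the listed sites of these genes were thus not detectable at this depth. The table holds no peak with an unscaled log2 ratio under 2.01, so differences from weaker sites could not enter the test.

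The same table was read for other factors on a broad list drawn up for the B lineage. Its 37 other genes include EBF1, PAX5, SPI1, IKZF1, BCL6 and PRDM1, but also BCL11B, TBX21, FOXP2 and SPIC. Of the 37, 1 had a listed peak, LMO2, a cofactor that bridges E proteins with other factors. The 6 genes described were taken from the listed peaks, so this count is not set against theirs. The share of all genes with a listed peak was not computed. Neither this count nor that of the E-protein genes below is therefore read as few or many. LMO2 was marked Down, in contrast to the 6 genes described, and had a promoter peak on chromosome 11 (33913212 to 33913805), where 252 reads in ChIP and 28 in input gave 8.12-fold (5.49 to 12.5). Its other 2 peaks, both upstream, had 4.19-fold (2.33 to 8.09) and 4.04-fold (2.43 to 7.03). Of 10 other genes of E proteins, their ID inhibitors and related helix-loop-helix factors, TCF3, TCF12 and ID1 to ID4 had no listed peak. The 1 that had one was MYC (28 and 5 reads, 5.05-fold, 1.93 to 16.8), in a row whose accession is that of the neighbouring CASC11. Since the table is limited to signature genes, a gene without a peak may still be bound.

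With a single ChIP library there is no pattern over conditions by which to find genes alike. Among genes with the same number of peaks, the one closest in the counts of intragenic, upstream and downstream sites, and then in median scaled log2 ratio, was DLEU1 for TCF4 (4 within and 1 downstream at both, medians 2.17 and 2.07) and PARP4 for RUNX1 (both peaks within, 2.22 and 2.24). MBP had the positions of BCL11A with a higher median (2.87 against 2.14). CKS1B had a downstream peak like SPIB (2.46 and 2.43). MDM4 came closest to IRF4 (2.47 and 2.46) with 2 peaks within and 2 downstream, and NEDD4L, the only other gene with 10 peaks, to FOXP1 (2.32 and 2.23), with all its peaks within. No listed peak of another gene lay within 100 kb of any of the 29 peaks. The table lists only signature genes, so peaks assigned to other genes could lie nearer.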

How the data were processed

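TCF4 binding was measured in 1 ChIP and 1 input library of SU-DHL-2 cells. Per the submitters' processing notes, BWA, GATK and hg19 were used, with roles and versions not given in the sources used here; neither is the peak caller. The authors deposited 1 table of peaks of signature genes, with read counts per peak (the column headed IC was taken as the input, the only other library), a log2 ratio of counts plus 1, a scaled log2 ratio, a normalized signal and 2 kinds of −log10 p-value. The deposited signal equalled reads over width divided by 1 constant per library (93.5 M for ChIP and 84.4 M for input, were the values RPKM), and the 2 constants scale every fold given. Whether they reflect library size or spike-in is unstated. Coordinates are the deposited hg19 ones, of unstated base (0 or 1). Chromosome and position of a peak, its promoter mark and its distances are the authors'; start sites were recovered from the distances and the strand in RefSeq. All 29 accessions belong to the named gene in RefSeq.

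Intervals are exact binomial (Clopper-Pearson) at 95% of the ChIP share of reads. Counting error alone enters them, since reads sharing 1 molecule cannot be recognised. The within-gene test was also run on simulated read counts, with an outcome that is not reported here and on which nothing rests. Python 3.11.15, pandas 2.3.3, numpy 2.4.6, scipy 1.17.1 and matplotlib 3.10.9 were used. All peaks of the 6 genes are described; other genes are named where a B-lineage or E-protein list holds them, where a peak lies within 100 kb, or where they are most alike. Members and lists were chosen with earlier results of these data known. Alternatives were another scaling, a pseudocount of 1 read, at least 10 input reads, the stronger 50% of peaks by ChIP reads, merging of peaks under 1 kb or 5 kb apart, other promoter windows and start sites, and an adjusted p of 0.1.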

Additional observations from a re-analysis of the deposited data

How the results depend on the processing

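The summed fold of the 29 peaks was 5.67 without the library constants, which lies past the interval of 4.65 to 5.64, and 4.88 with 1 read added to each peak. The constants enter every fold alike, and the interval of the summed reads is narrower than those of the single peaks. Each of the 29 single folds stayed inside its own counting interval under both settings. The fold of the FOXP1 peak with 2 input reads was 15.9 with 1 read added. The number of peaks near a start site depended on the window: from 0 within 1 kb it became 1 within 5 kb and 1 within 10 kb of the given start, and it was 0, 2 and 4 within 2 kb, 5 kb and 10 kb of any recovered start. The median scaled log2 ratio ran from 2.22 to 2.39 under the alternatives run, and the calls between peaks of a gene stayed at 0. The share within the transcript was 54.5% among the stronger 50% of peaks by ChIP reads, against 65.5% over all 29. Merging of peaks under 1 kb or 5 kb apart could not change the 29 sites or this share. The smallest gap between peaks of 1 of the 6 genes was 7.36 kb. Among the stronger 50% of peaks 8 of the 28 could be tested. Depth limits the sites with few input reads most. No paired analysis was possible because there is 1 library of each kind, and for the same reason no library could be left out.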
